A study of Mus musculus with 12 samples.

Results

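The mRNA levels of 9 genes of NAD metabolism were followed over the day in mouse liver: *Nampt*, *Nmnat1*, *Nmnat3*, *Nadk*, *Nadsyn1*, *Qprt*, *Nnmt*, *Sirt1* and *Parp1*. They were taken by symbol from a table of 20069 genes, and each of the 9 was found, *Nampt* under its older symbol *Pbef1*. The 12 samples are livers of wild-type male C57BL/6 mice of 3 to 6 months, kept for at least 2 weeks in cycles of 12 hr light and 12 hr dark with no treatment or transgene. Livers were collected every 4 hr from ZT2 to ZT22 (hr after lights on at ZT0), with 1 liver per time point in each of 2 replicate series, so that every liver comes from a different animal. Poly(A) RNA was sequenced, and the signal is the mean exon coverage in reads per base pair (rpbp), given here per 40000000 uniquely mapped sequences, so that levels of genes of different length can be compared. The table holds no read numbers, so no counting error is given, and every error is the spread between livers.

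NAD carries electrons in metabolism and is also consumed as a substrate by sirtuins and by poly(ADP-ribose) polymerases, which release nicotinamide. The liver rebuilds NAD from nicotinamide by salvage, from nicotinic acid, and from tryptophan. NAMPT makes nicotinamide mononucleotide from nicotinamide and is held to limit the rate of salvage, and its gene is a known target of the circadian activator CLK:BMAL1, which binds the E-box CACGTG. NMNAT enzymes turn the mononucleotides into dinucleotides, QPRT brings the tryptophan route into this pathway, NADSYN1 makes NAD from its acid form, and NADK phosphorylates NAD to NADP. NNMT methylates nicotinamide and so withdraws it from salvage.

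All 9 genes were expressed, that is, at least 1 of their 12 values was above 8 rpbp, as for 10198 genes in all. *Nmnat3* passed this minimum with 3 values only, from ZT2 and ZT6, where it was highest. A gene was called rhythmic by 3 criteria on its 12 values, applied together. F24, the share of the variance taken up by a 24 hr cosine, had to be above 0.45. Its permutation p over 100000 random orders had to be below 0.05, and the amplitude, the highest over the lowest value, above 1.5. By these criteria 4 of the 9 genes were rhythmic (*Nampt*, *Nmnat3*, *Nadk* and *Qprt*), beside 19% of the expressed genes (1942). The other 5 (*Nmnat1*, *Nadsyn1*, *Nnmt*, *Sirt1* and *Parp1*) were not called. The median F24 of the 9 was 0.438 and that of all expressed genes 0.310, and the median amplitudes were 1.77 and 1.64. With the Benjamini-Hochberg adjustment of the permutation p over all expressed genes, *Nampt* and *Qprt* passed 0.05, beside 5.88% of the genes. In an F-test across the 6 time points with limma on log2(rpbp + 1), 3 of the 9 passed an adjusted p of 0.05, *Nampt*, *Nmnat3* and *Nadk*, beside 17.6% of the genes.

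**Figure D1:**
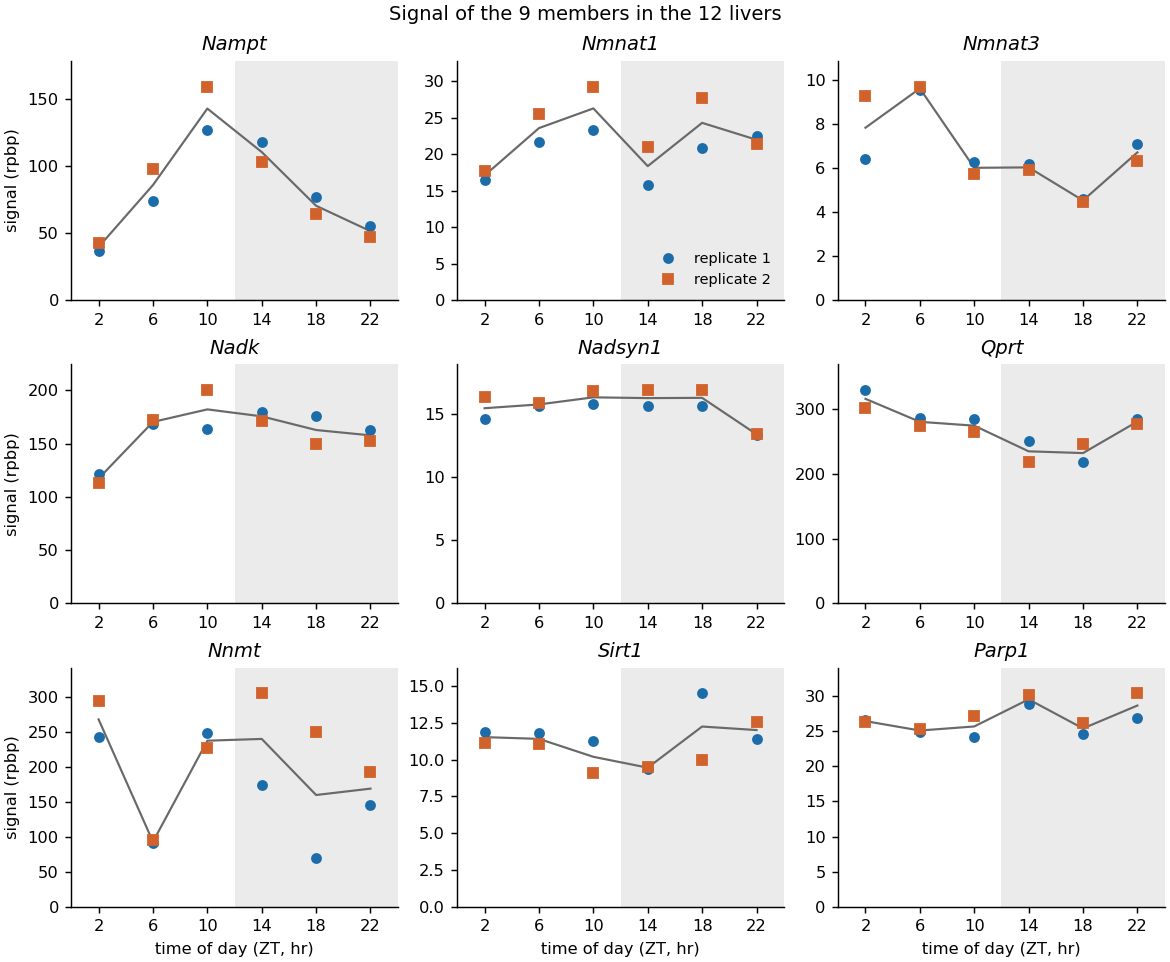
Signal in rpbp (vertical axis, from 0) against time of day in hr for each of the 9 genes, with circles for replicate 1, squares for replicate 2, a line through the means of 2 livers and the dark phase shaded. The mean of *Nampt* is 39.5 rpbp at ZT2 and 143 rpbp at ZT10, while *Parp1* stays between 24.2 and 30.4 rpbp in the 12 livers.

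The levels covered a wide range. *Qprt* was the most abundant mRNA of the group, with 270 ± 32.4 rpbp (mean ± SD over the 12 livers), followed by *Nnmt* with 195 ± 80.0 rpbp, *Nadk* with 161 ± 24.3 rpbp and *Nampt* with 83.2 ± 37.9 rpbp. *Parp1* had 26.8 ± 2.08 rpbp, *Nmnat1* 21.95 ± 4.16 rpbp, *Nadsyn1* 15.6 ± 1.22 rpbp, *Sirt1* 11.2 ± 1.53 rpbp and *Nmnat3* 6.78 ± 1.79 rpbp. Neighbours in this order had overlapping values across the livers, except *Nampt* and *Parp1*: the lowest *Nampt* value was 36.8 rpbp and the highest *Parp1* value 30.4 rpbp. *Nampt* was thus above *Nmnat1*, *Nmnat3*, *Nadsyn1*, *Sirt1* and *Parp1* in all 12 livers. The coefficient of variation over the 12 livers was 45.5% for *Nampt* and 41.1% for *Nnmt*, but 7.75% for *Parp1* and 7.81% for *Nadsyn1*.

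**Figure D2:**
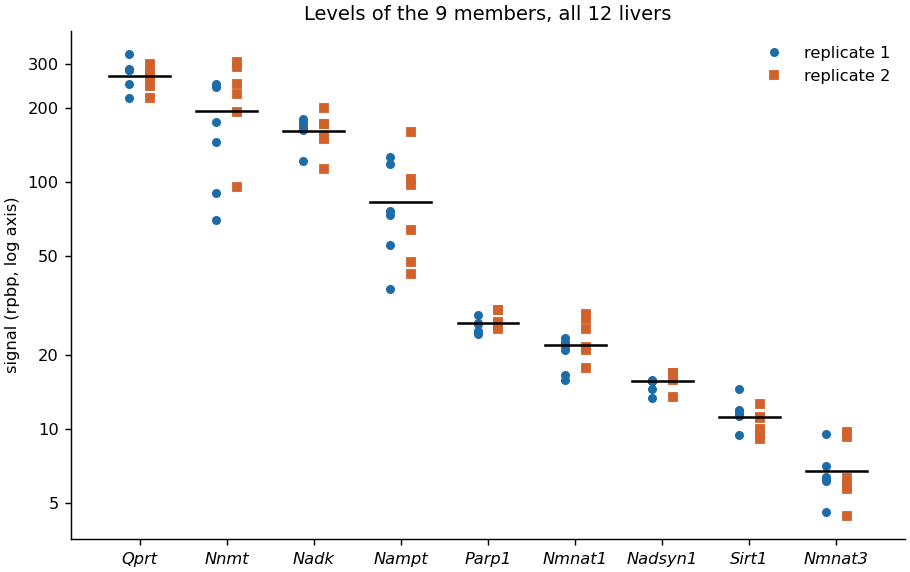
Signal in rpbp (vertical log axis) of the 9 genes, ordered by mean, with circles for the livers of replicate 1, squares for those of replicate 2 and a bar at the mean of 12. *Qprt*, *Nnmt* and *Nadk* lie above *Nampt* by their means, and the other 5 genes lie wholly below it.

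The ZT2 livers stood apart from the others in the summed signals of genes that mark hepatocytes and Kupffer cells. The summed signal of 6 hepatocyte genes was 84150 and 86700 rpbp in the ZT2 livers and 127370 to 158868 rpbp in the other 10, mostly through albumin (*Alb*), with 50445 and 53126 rpbp against 93174 to 122523 rpbp. By time-point means, 5 of the 6 genes were lowest at ZT2, while *Apoa1* was highest there, with 17593 ± 240.1 rpbp against 9796 to 14129 rpbp at the other times. Summed signals of 6 Kupffer cell genes were highest at ZT2, with 566 and 568 rpbp against 273 to 452 rpbp. In whole liver, fewer cells of a type and less RNA per cell cannot be told apart. Sums of 5 neutrophil genes ranged from 3.32 to 23.5 rpbp over the 12 livers, with 17.4 and 23.0 rpbp at ZT2, and *Ly6g* was not listed. For the other listed cell types the ZT2 sums lay within the range of the other livers. They were 192 and 193 rpbp for endothelium (166 to 200 rpbp in the others) and 194 and 207 rpbp for stellate cells (185 to 241 rpbp). Bile duct genes had 10.6 rpbp in both (3.80 to 14.1 rpbp), and red blood cell genes 329 and 409 rpbp (295 to 857 rpbp). Rhythm calls, ratios and correlations with *Nampt* were also computed without the ZT2 livers, an alternative chosen after the data had been seen. The part of cell composition in these results was not tested.

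*Nampt* (chr12:33505200-33538234, mm9, plus strand) was the most rhythmic gene of the group. In replicate 1 its signal was 36.8, 73.8, 126, 118, 76.5 and 55.4 rpbp, in order from ZT2 to ZT22. In replicate 2 it was 42.3, 97.5, 159, 103, 63.9 and 47.2 rpbp at the same times. Both series rose through the light phase to a maximum at ZT10 and fell through the night to the lowest value at ZT2, and the livers of ZT2 did not overlap those of any other time point. The mean was 39.5 ± 3.93 rpbp (SD, n = 2) at ZT2 and 143 ± 23.0 rpbp at ZT10, which is 3.61-fold. The spread between livers of 1 time point was 15.9% of the mean level. F24 was 0.860, the 132nd highest of 10198 genes, with a peak at 11.3 hr (permutation p = 7e-05, adjusted p = 0.00978), and the amplitude was 4.32. The limma test across time points gave an adjusted p of 0.00286.

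Each series alone showed the same course for *Nampt*, with F24 of 0.951 and a peak at 12.2 hr in replicate 1, and F24 of 0.890 and a peak at 10.6 hr in replicate 2. The exact permutation p over all 720 orders was 0.05 in each, where 0.0167 is the smallest that 6 values allow. Without the ZT2 livers, *Nampt* kept an F24 of 0.824, an amplitude of 3.36 and its call (permutation p = 0.00198), but the p adjusted over all expressed genes was 0.0603. The limma test across the 5 other time points gave an adjusted p of 0.0264.

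**Figure D3:**
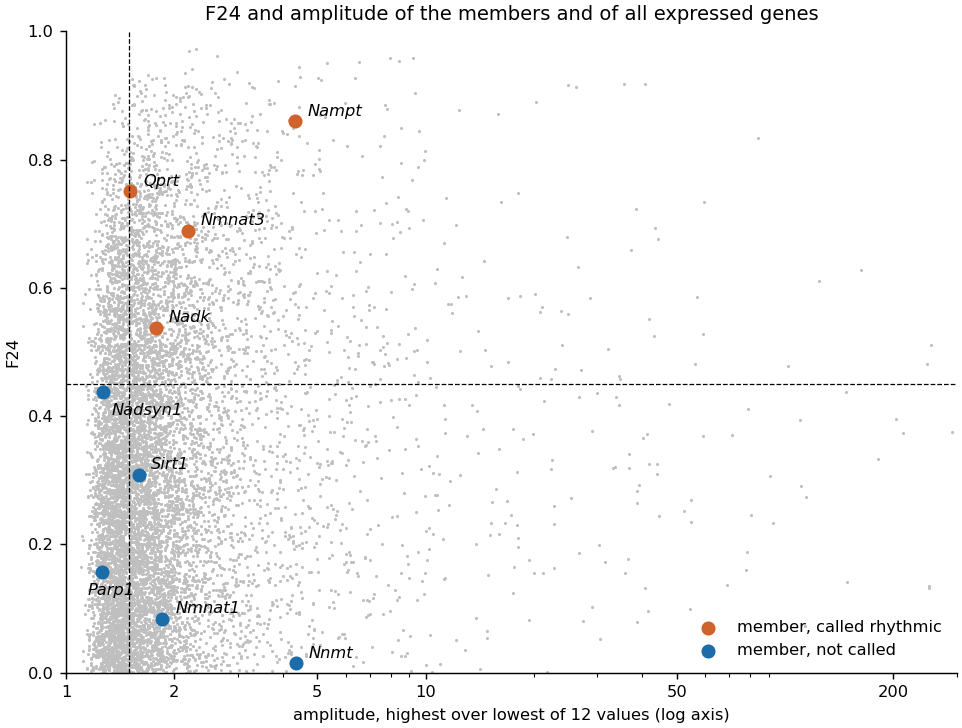
F24 (vertical axis) against amplitude, the highest over the lowest of 12 values (horizontal log axis), for the expressed genes in grey and the 9 genes in colour, with dashed lines at the limits of 0.45 and 1.5. Genes with a lowest value of 0 and those beyond the axis are not drawn. *Nampt* lies at F24 0.860 and amplitude 4.32, *Nnmt* at nearly the same amplitude with F24 0.015, and *Qprt* on the amplitude limit.

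The sequence at the start of *Nampt* was read for the E-box CACGTG, which is the same on both strands, for the D-box TTANGTAA bound by DBP, TEF and HLF, and for AGGTCA, the core letters bound by ROR and REV-ERB receptors. The D-box and AGGTCA were searched on both strands. They are shown because *Nampt* is a known target of CLK:BMAL1. The 250 bases before the start (RefSeq, GRCm38.p6, chr12:32820085-32820334, plus strand), identical in mm9, hold no CACGTG and no TTANGTAA, and 1 AGGTCA that begins 151 bases before the start. In the 5000 bases before the start no CACGTG was found in mm9. The nearest after the start begins at base 741, within the first intron (9540 bases long), and is shown in a window of 300 bases (mm9, chr12:33505700-33505999, plus strand) with a TTANGTAA match at base 550. This E-box lies at chr12:33505940-33505945 and is the first of 7 CACGTG matches in the gene. Motif letters are in capitals, and the matches do not overlap.
Nampt, 250 bases before the start: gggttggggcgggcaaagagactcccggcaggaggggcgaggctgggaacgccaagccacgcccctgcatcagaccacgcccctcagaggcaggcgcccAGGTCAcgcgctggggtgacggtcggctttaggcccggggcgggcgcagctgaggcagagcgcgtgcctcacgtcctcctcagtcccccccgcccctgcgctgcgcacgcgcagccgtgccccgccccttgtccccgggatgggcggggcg
Nampt, first intron, bases 501 to 800: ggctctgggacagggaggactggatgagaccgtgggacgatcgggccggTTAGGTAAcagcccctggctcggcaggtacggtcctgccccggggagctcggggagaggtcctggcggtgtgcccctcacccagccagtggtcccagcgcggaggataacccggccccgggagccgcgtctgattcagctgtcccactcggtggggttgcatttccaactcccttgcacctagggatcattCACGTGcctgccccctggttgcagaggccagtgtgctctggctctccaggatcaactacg

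Of all 32851 promoters in the RefSeq table, 6.02% hold CACGTG in the 250 bases before the start, 2.06% hold TTANGTAA and 14.02% hold AGGTCA. In bases 501 to 800 after the start of 22377 protein-coding genes (mm9), CACGTG occurs in 4.47% and TTANGTAA in 2.43%. That window was placed where the *Nampt* match had been found, so these shares describe the window and understate how often such a search finds a match. Of the 9 genes, 8 were in the table, with 10 promoters. CACGTG was present before the start in 3 of them, *Nadk* (at 1 of its 2 starts), *Sirt1* and *Parp1*, and TTANGTAA in none of the 8. These letters stand 40 bases before the *Nadk* start, 115 and 43 bases before the *Sirt1* start and 49 bases before the *Parp1* start, each shown with 12 bases on either side for comparison with *Nampt*. The windows (GRCm38.p6) are chr4:155563763-155563792 on the plus strand, chr10:63339133-63339162 and chr10:63339061-63339090 on the minus strand and chr1:180568830-180568859 on the plus strand. A match is a stretch of letters and was not tested for binding.
Nadk, 40 before the start: cgccgctctcccCACGTGccctgcagcgca
Sirt1, 115 before the start: gcggcgcccggcCACGTGacccggcgtgtt
Sirt1, 43 before the start: ggaggggcgggtCACGTGacggggtttaaa
Parp1, 49 before the start: acctcccaaggaCACGTGctgaagccccgc

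Among the genes with CACGTG just before the start, *Nadk* was called rhythmic, while *Sirt1* and *Parp1* were not. *Nampt*, with none there, had the highest F24 of the 4. A link between these letters and a rhythm was not tested, and the *Nadk* call was lost without the ZT2 livers.

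The NMNAT enzymes act directly after NAMPT. *Nmnat1* (chr4:148841681-148859311, mm9, minus strand) encodes the nuclear enzyme. Its signal was 16.5, 21.7, 23.3, 15.8, 20.9 and 22.6 rpbp from ZT2 to ZT22 in replicate 1, and 17.7, 25.5, 29.3, 21.0, 27.8 and 21.4 rpbp in replicate 2. Both series had their highest value at ZT10, and the lowest was at ZT14 in replicate 1 and at ZT2 in replicate 2. The ZT10 livers lay above those of ZT2, ZT14 and ZT22 and overlapped those of ZT6 and ZT18. F24 was 0.084 (permutation p = 0.666), and the limma test across time points gave p = 0.0622 before and 0.154 after adjustment. Without the ZT14 liver of replicate 1, F24 was 0.322 (permutation p = 0.218). By time-point means *Nmnat1*, as *Nampt*, was highest at ZT10 and lowest at ZT2. The correlation of the 2 genes on the log2 scale was 0.43 over the 12 livers and 0.08 without the ZT2 livers.

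*Nmnat3* (chr9:98187854-98320946, mm9, plus strand), for the mitochondrial enzyme, was the least abundant of the 9. Its signal was 6.40, 9.52, 6.28, 6.16, 4.60 and 7.08 rpbp from ZT2 to ZT22 in replicate 1, and 9.24, 9.68, 5.72, 5.88, 4.44 and 6.32 rpbp in replicate 2. It was highest at ZT6 and lowest at ZT18 in both series, and the livers of ZT2 were the farthest apart. The mean was 9.60 ± 0.113 rpbp at ZT6 and 4.52 ± 0.113 rpbp at ZT18 (SD, n = 2), which is 2.12-fold. F24 was 0.689 with a peak at 4.60 hr (permutation p = 0.00443, adjusted p = 0.0613), and the limma test across time points gave an adjusted p of 0.0231. Its rhythm call held with each of the 12 livers left out in turn, and without the ZT2 livers F24 was 0.796, but with a minimum of 16 rpbp the gene was not counted as expressed. The limma call was lost in 4 of these 12 fits, with adjusted p of 0.0803 and 0.0829 without the ZT6 liver of replicate 1 and of replicate 2, and 0.0576 and 0.0626 without that of ZT18. The gene was tested only through its high values at ZT2 and ZT6, and its call was the same with no expression minimum. Its fitted peak lay 6.71 hr before that of *Nampt*, a difference that was not tested by itself, and the correlation of the 2 genes over the 12 livers was -0.17 on the log2 scale.

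*Nadk* (chr4:154936487-154965110, mm9, plus strand), for the cytosolic NAD kinase, was the gene of the group most like *Nampt*. Its signal was 122, 169, 164, 180, 176 and 163 rpbp from ZT2 to ZT22 in replicate 1, and 113, 172, 200, 172, 150 and 153 rpbp in replicate 2. The 2 ZT2 livers were below the other 10, whose values lay between 149.9 and 200.4 rpbp. The mean was lowest at ZT2, with 117 ± 6.17 rpbp (SD, n = 2), and 1.55-fold higher at ZT10, with 182 ± 25.7 rpbp. F24 was 0.538 with a peak at 12.5 hr (permutation p = 0.0216, adjusted p = 0.124), and the limma test across time points gave an adjusted p of 0.0458. Its correlation with *Nampt* over the 12 livers was 0.84, rank 237 of 10197 genes.

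The *Nadk* call rested on ZT2, where 5 of the 6 hepatocyte genes, all but *Apoa1*, were also at their lowest. Without the ZT2 livers F24 was 0.3999 (permutation p = 0.159) and the amplitude 1.34, so that the gene was no longer called. Leaving out 1 liver also ended the call, with permutation p of 0.0559 without ZT2 of replicate 1, 0.0591 without ZT2 of replicate 2 and 0.0577 without ZT10 of replicate 2. The limma call held in 2 of 12 such fits, with adjusted p of 0.0329 to 0.214, and was 0.691 without both ZT2 livers.

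*Qprt* and *Nadsyn1* serve the routes to NAD from tryptophan and nicotinic acid. *Qprt* (chr7:134250628-134265740, mm9, minus strand) had 329, 287, 284, 251, 218 and 285 rpbp from ZT2 to ZT22 in replicate 1, and 302, 274, 265, 219, 246 and 277 rpbp in replicate 2. It was highest at ZT2 in both series, above all 10 other livers, and lowest at ZT14 or ZT18. The mean was 316 ± 19.3 rpbp at ZT2 and 232 ± 19.5 rpbp at ZT18 (SD, n = 2). F24 was 0.751 with a peak at 3.23 hr (permutation p = 0.00117, adjusted p = 0.0326), but the limma test across time points gave an adjusted p of 0.0774. The fitted peak of *Qprt* lay 8.07 hr before that of *Nampt*, a difference that was not tested by itself. The change of *Qprt* was smaller, with an amplitude of 1.51 that is just above the limit and 1.36 between time-point means. The call was lost with amplitudes from the means, with other size factors, without the ZT2 liver of replicate 1 (F24 0.722, permutation p = 0.00668) and without both ZT2 livers (F24 0.654, permutation p = 0.0293, amplitude 1.31), each time through the amplitude. Without both ZT2 livers the adjusted permutation p was 0.175, so that *Qprt* no longer passed by it either.

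*Nadsyn1* (chr7:150981489-151008754, mm9, minus strand) varied little. Its signal lay between 13.4 and 16.9 rpbp, with 13.4 rpbp in both ZT22 livers and at least 14.6 rpbp in the 10 others. F24 was 0.438, just under the limit, with a peak at 11.4 hr (permutation p = 0.0786), and the amplitude was 1.26. Without the ZT2 livers F24 was 0.624 (permutation p = 0.0242), and without the ZT2 liver of replicate 2 alone it was 0.633 (permutation p = 0.0180), but the amplitude kept it uncalled.

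*Nnmt* (chr9:48399982-48413258, mm9, minus strand) had an amplitude of 4.35, close to that of *Nampt*, with a low F24. Its signal was 242, 90.7, 249, 175, 70.3 and 145 rpbp from ZT2 to ZT22 in replicate 1, and 294, 95.3, 227, 305, 249 and 193 rpbp in replicate 2. Both ZT6 livers were low, both ZT2 and both ZT10 livers were high, and the 2 livers of ZT18 differed 3.55-fold. The spread between livers of 1 time point was 34.7% of the mean level, the highest of the 9 genes. Values were higher in replicate 2 at 5 of the 6 time points, all but ZT10. F24 was 0.015 (permutation p = 0.931), and the limma test gave p = 0.0898 before and 0.193 after adjustment. The limma result of *Nnmt* depended on ZT18, since the test passed the threshold with either of its livers left out. In such a fit ZT18 holds 1 liver, and the error comes from the other time points only. F24 was at most 0.129 with any 1 liver left out. F24 was 0.325 without both ZT2 livers (permutation p = 0.249), and 0.146 and 0.248 in the single series.

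Neither of the NAD-consuming enzymes was called rhythmic. *Sirt1* (chr10:62781753-62844452, mm9, minus strand) encodes a deacetylase that acts on histones and on clock and metabolic regulators. Its signal was 11.9, 11.8, 11.3, 9.40, 14.5 and 11.4 rpbp from ZT2 to ZT22 in replicate 1, and 11.2, 11.04, 9.12, 9.52, 10 and 12.6 rpbp in replicate 2. The highest of the 12 livers was ZT18 of replicate 1, and its partner of replicate 2 was among the lower ones. F24 was 0.308 (permutation p = 0.185), and the limma test across time points gave an adjusted p of 0.464. Without the ZT18 liver of replicate 1, F24 was 0.647 (permutation p = 0.0230), and the gene still missed the amplitude limit. Of the 5331 exon bases of *Sirt1*, 65 are shared with an antisense gene, and the authors counted without strand.

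*Parp1* (chr1:182499086-182531384, mm9, plus strand) encodes the main polymerase that spends NAD at DNA breaks. Its signal was 26.6, 24.8, 24.2, 28.9, 24.6 and 26.9 rpbp from ZT2 to ZT22 in replicate 1, and 26.3, 25.4, 27.2, 30.2, 26.2 and 30.4 rpbp in replicate 2. The ZT14 livers were the highest of replicate 1 and the second highest of replicate 2, above the livers of ZT2, ZT6, ZT10 and ZT18 and overlapping those of ZT22. F24 was 0.157 (permutation p = 0.452), the amplitude 1.26, and the adjusted p of the limma test 0.336. Without the ZT18 liver of replicate 1, F24 was 0.399 (permutation p = 0.140). A p that misses the threshold does not show that the level is constant over the day.

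*Nampt* was next compared with each other gene within the same liver, as a log2 ratio, to test whether the 2 genes moved differently over the day. The ratio of *Nampt* to *Nadk* rose from 0.338 ± 0.0513 at ZT2 to 0.781 ± 0.0160 at ZT10 (SD, n = 2), and *Nampt* was below *Nadk* in all 12 livers. *Nampt* over *Qprt* rose from 0.126 ± 0.0201 at ZT2 to 0.522 ± 0.110 at ZT10. *Nampt* over *Nnmt* took another course, lowest at ZT2 with 0.148 ± 0.00546 and by its mean highest at ZT6 with 0.918 ± 0.149. *Nampt* was above *Nnmt* in 2 of the 12 livers, one of ZT6 and one of ZT18. The log2 ratio had a 24 hr rhythm with an adjusted permutation p below 0.05 for 7 of the 8 genes, with F24 from 0.817 (*Nadsyn1*) to 0.927 (*Nadk*), and not for *Nnmt* (F24 0.320, adjusted p = 0.183). The same held for 95.5% of all other expressed genes, so that this count is near the background. The rhythm of *Nampt* enters every ratio. A rhythmic ratio thus shows only that the other gene did not follow *Nampt* in proportion, and says nothing of a rhythm of that gene. Without the ZT2 livers it was 7 of 8 as well, beside 9463 ratios with 10055 genes expressed.

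**Figure D4:**
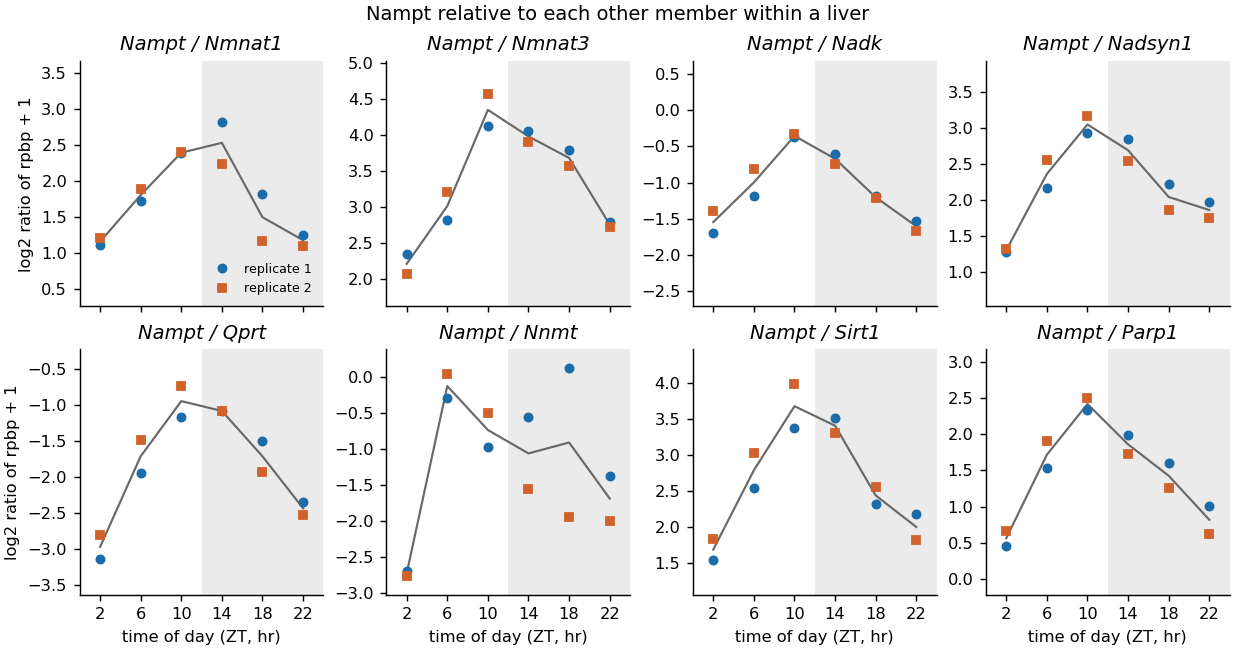
Log2 ratio of *Nampt* to each of the 8 other genes (vertical axis, both values in rpbp + 1, each panel spanning the same range) against time of day in hr, with circles for replicate 1, squares for replicate 2, a line through the means and the dark phase shaded. In 6 panels the mean ratio is highest at ZT10, with *Nmnat1* (ZT14) and *Nnmt* (ZT6) as the exceptions.

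The genes with the course most like that of *Nampt* were ranked by the Pearson correlation of log2(rpbp + 1) over the 12 livers, as a description, since livers of 1 time point share their hour. Among the 5 highest were *Slc16a12* (0.97), the clock repressor *Per1* (0.97), *Ptp4a1* (0.97) and the adenylate kinase *Ak3l1* (0.96), and these 4 peaked between 11.2 and 11.6 hr. *Per1* had 0.70 rpbp at ZT2 and 12.8 rpbp at ZT10 (means of 2 livers) and peaked at 11.3 hr, the same hour as *Nampt*, at a far lower level and with an amplitude of 20.2. *Per2* ranked 35th (0.93), *Per3* 103rd (0.89) and *Tef* 107th (0.89). Next among the clock genes were *Ciart* (0.86), *Hlf* (0.79), *Dbp* (0.73), *Cry2* (0.73) and *Bhlhe40* (0.73). Values were near 0 for *Cry1* (0.15, peak at 17.3 hr) and *Nr1d1* (-0.15, peak at 5.33 hr). At the other end were genes of the activator complex, *Npas2* (-0.82), *Clock* (-0.76) and *Arntl* (-0.65), the last of which encodes BMAL1. *Npas2* was above the minimum of 8 rpbp in 1 of the 12 livers, and *Per1* and *Ciart* in 4 each. These genes were tested only through their high values, and most of their values lay below the minimum. *Arntl* peaked at 21.1 hr and *Clock* at 21.2 hr, that is, 9.74 and 9.94 hr after *Nampt*, differences that were not tested by themselves. Of 18 clock genes, 17 were expressed and 15 of these were called rhythmic, beside 19% of all expressed genes, and 14 without the ZT2 livers, beside 1531 of 10055 genes. Without these livers the correlation with *Nampt* was 0.96 for *Per1*, 0.87 for *Per2* and 0.78 for *Nadk*. It was 0.81 for *Per3*, 0.80 for *Tef*, 0.78 for *Ciart* and 0.66 for *Dbp*. For *Hlf*, which was no longer called, it was 0.60, for *Cry2* 0.52 and for *Bhlhe40* 0.47. *Cry1* had -0.25, *Nr1d1* 0.10, *Npas2* -0.86, *Clock* -0.72 and *Arntl* -0.60. Of the 1942 rhythmic genes of the liver, 381 (19.6%) peaked between 10 and 13 hr, as *Nampt* and *Nadk* did, and 141 (7.26%) between 3 and 5 hr, as *Qprt* and *Nmnat3* did. Both windows were placed around the peaks of these members, so the shares only describe the windows.

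**Figure D5:**
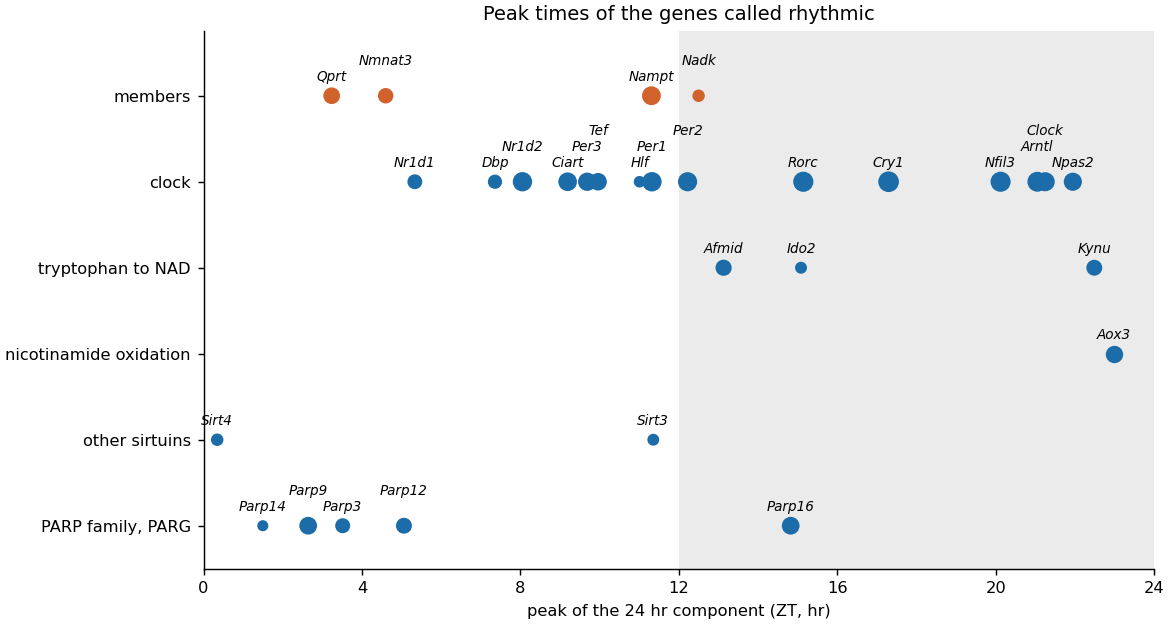
Peak of the 24 hr component in hr (horizontal axis, dark phase shaded) of the genes called rhythmic, with 1 line per gene group and the area of a point growing with F24. *Nampt* at 11.3 hr and *Nadk* at 12.5 hr lie with *Hlf*, *Per1* and *Per2*, while *Qprt* and *Nmnat3* lie before 5 hr.

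The other genes of NAD metabolism were read in the same way. On the tryptophan route 3 of 9 expressed genes were rhythmic, beside 19% of all expressed genes, *Afmid* (kynurenine formamidase, F24 0.727, peak at 13.1 hr, amplitude 2.31), *Kynu* (kynureninase, 0.712, 22.5 hr, 1.66) and *Ido2* (0.513, 15.1 hr, 1.85). Only *Kynu* passed with the adjusted p, at 0.0389, and *Tdo2*, the first enzyme of this route in liver, was not called (F24 0.433, permutation p = 0.0818). The limma test across time points passed for 4 of the 9, beside 17.6% of all expressed genes, including *Tdo2* (adjusted p = 0.0473) and *Aadat* (adjusted p = 0.00395), which was 2.47-fold higher at ZT2 than at ZT6. Without the ZT2 livers *Ido2* was no longer called, and *Kynu* had an adjusted permutation p of 0.0882. *Tdo2* then had an F24 of 0.845 (adjusted permutation p = 0.0477). It was not called, since its amplitude, 1.57 with all livers, fell below the limit. *Aadat*, with a mean of 256 rpbp at ZT2 and 104 to 133 rpbp at the other times, then had an F24 of 0.117 (permutation p = 0.644). In the salvage and transport group, which includes *Naprt1*, *Pnp*, the mitochondrial NAD carrier *Slc25a51* and *Nt5e*, 0 of 4 expressed genes were called (lowest permutation p = 0.0502), and 2 of the 4 passed the limma test across time points (17.6% of all expressed genes). The alternative adenylyltransferase *Nmnat2* was at most 0.72 rpbp. Of 2 aldehyde oxidases that oxidise methylated nicotinamide, *Aox3* was rhythmic (F24 0.787, peak at 23.0 hr, amplitude 2.23, adjusted p = 0.0329) and *Aox1* was not.

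Among the other sirtuins, 2 of 5 expressed genes were called (19% of all expressed genes), *Sirt3* (F24 0.509, peak at 11.4 hr, amplitude 2.08) and *Sirt4* (0.539, 0.345 hr, 1.76), with adjusted permutation p of 0.175 and 0.151. These 2 encode mitochondrial sirtuins, as does *Sirt5*, which was not called (F24 0.358, permutation p = 0.109). *Sirt3* had its trough at ZT2, as *Nampt* did, and without the ZT2 livers its peak lay at 8.70 hr. In the PARP family with the glycohydrolase *Parg*, 5 of 9 expressed genes were called, beside the same 19%, with *Parp16* (0.805, 14.8 hr, 2.59), *Parp9* (0.804, 2.64 hr, 2.21) and *Parp12* (0.714, 5.06 hr, 1.749) the highest by F24, and *Parp16* (0.0240) and *Parp9* (0.0126) passed with the adjusted permutation p. Without the ZT2 livers 4 of these 5 kept their call, all but *Parp14*, and the adjusted permutation p was 0.137 for *Parp16* and 0.103 for *Parp9*. *Cd38*, an NAD glycohydrolase, was expressed at 17.4 rpbp and was not called (F24 0.085, permutation p = 0.678). The transhydrogenase *Nnt* was not called either (F24 0.487, permutation p = 0.0533).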

How the data were processed

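The deposited signal is a coverage in reads per base pair. Per the labels and the study's methods, the authors mapped reads with TopHat (CASAVA 1.8 base calls) to mm9, kept unique places, flattened the exons of all isoforms, ignored strand and scaled each sample to 10000000 uniquely mapped sequences. It was multiplied by 4 here. The columns named ZT20 were taken as ZT22, as labelled. The deposited F24, phase and p-value columns of the authors were not used.

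F24, peak time and permutation p (100000 orders, seed 1, smallest p 1e-05) were computed for all genes, with Benjamini-Hochberg adjustment over 10198 expressed genes. limma tested log2(rpbp + 1). The scripts were tested on simulated data. The members and gene lists were chosen with earlier results of these data known. The 9 members, the 5 genes most like *Nampt* (1 is not reported here), listed clock genes and up to 3 rhythmic genes per list were named. *Tdo2*, *Aadat*, *Apoa1*, *Cd38*, *Nnt* and the other uncalled list genes were named after their values were seen. Older symbols were matched through RefSeq; *Nmrk1*, *Nmrk2*, *Pnp2*, *Nadk2* and *Parp10* were not matched. Gene models are GENCODE (mm9).

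The alternatives were other expression minimums (16 rpbp or none), size factors, F24 on log scales, an adjusted p, limma, amplitudes from means, a series term, and each liver or series left out. Python 3.11.15, numpy 2.4.6, pandas 2.3.3, R 4.3.3 and limma 3.58.1 were used.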

Additional observations from a re-analysis of the deposited data

How the results depend on the processing

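Among 9 alternatives that keep all livers (F24 0.860 to 0.890) and with 1 liver left out (0.840 to 0.901 in 12 fits), *Nampt* was called rhythmic each time. In single series its F24 was 0.890 and 0.951, with an exact permutation p of 0.05, and 0 of the 9 genes were called, though *Qprt* had an exact permutation p of 0.0333 in replicate 2. The 9 genes gave 2 calls with the adjusted p, 2 without both ZT2 livers (1531 over all genes) and 2 to 4 with 1 liver left out (2 without ZT2 of replicate 1). Over all genes there were 515 calls with the adjusted p and all criteria kept, 828 with limma, and 360 or 284 in a single series.

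The limma test across time points called 469 genes without the ZT2 livers and 724 to 1676 with 1 liver left out, beside 1792 with all livers. It moved by over 1.5 times (724 to 1191) without ZT2 or ZT6 of either replicate or ZT14 of replicate 2. Of the 9 genes, 1 remained called without the ZT6 liver of replicate 1 or of replicate 2, *Nampt*, and the cause was not tested. Ratios of *Nampt* were rhythmic for 3434 and 3500 genes in a single series by unadjusted exact p, among them 4 and 3 of the 8. Fewer values allow fewer small p there.

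Livers were not paired by replicate number. Over all genes, series differences correlated above 0.1 in 2 of 15 pairs of time points (-0.15 to 0.21). This cannot show that a single gene had no series difference. Replicate 2 was higher at 6 of 6 time points for *Nadsyn1*, at 5 for *Nmnat1*, *Nnmt* and *Parp1*, and at 1 to 3 for the others. With a replicate block there were 1792 rhythm calls, the same number of member calls (4), 1395 calls of the limma test across time points (2 members, *Nadk* lost at an adjusted p of 0.0718), and 9676 ratios. With this block *Nadsyn1* had an F24 of 0.519 (permutation p = 0.0327), and its amplitude kept it uncalled. The limma p was 0.0147 for *Nmnat1* and 0.0402 for *Nnmt* before adjustment, and 0.0742 and 0.126 after it. The limma test was not run on a single series, which leaves no replicate per time point. The signal is no count of reads, and the reads behind low genes such as *Nmnat3* were not worked out here.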
